A study of Homo sapiens with 6 samples.

Results

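Complex I, NADH:ubiquinone oxidoreductase, is the largest enzyme of the mitochondrial respiratory chain. Its nuclear-encoded genes were taken from a table of raw read counts as the rows whose symbol is NDUF followed by A, AB, AF, B, C, S or V and a number. This pattern held 46 of the 39396 gene symbols in the table, 38 of them named as subunits and 8 as assembly factors (NDUFAF). NDUFA4 matches by name but is now assigned to complex IV, so sums over subunits leave it out and use the other 37. All 46 genes had enough reads to be tested, and the lowest count of any of them in any library was 13. The pattern used names alone and no measured value.

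Complex I takes electrons from NADH at the tip of its matrix arm, passes them along a chain of iron-sulfur clusters to ubiquinone, and pumps protons through its membrane arm. The nuclear genome encodes the core subunits of the matrix arm and a large set of accessory subunits, and mitochondrial DNA encodes the core of the membrane arm. Assembly factors bind intermediates during construction, modify single subunits and are absent from the finished enzyme. In most cells the enzyme supplies a large part of the proton gradient used to make ATP, and it is a main site at which NADH is reoxidised.

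The study compared 3 RNA sequencing libraries of cells treated with olaparib, an inhibitor of the PARP enzymes that sense DNA strand breaks, with 3 libraries of cells given the solvent DMSO. Both groups are labelled as RKO, a human colorectal carcinoma line, with genotype WT, grown in EMEM with serum and antibiotics and plated 24 hours before treatment. Neither the dose of olaparib nor the time of exposure is given in the sources used here, and the study used 1 cell line. No label ties the replicates to independent cultures. The p-values below therefore reflect only how far the libraries of a group spread, and part of that spread may be technical.

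The libraries held 28715138 to 42423785 counts. The markers go against a single cell source. Genes that mark HEK293 embryonic kidney cells (IRS4, NEFL, NEFM, LIN28B and PAX2) summed to 0.0586 ± 0.0539 CPM (counts scaled to library size) in olaparib and 303 ± 92.2 CPM in DMSO (SD, n = 3 each). All 5 were called lower, each at or below 0.0708 CPM in every olaparib library and between 3.94 and 219.7 CPM in single DMSO libraries. The intestinal transcription factor CDX2 had no read in the olaparib libraries and averaged 24.5 CPM in the DMSO libraries, while HNF4A, another intestinal transcription factor, stood the other way, at 9.69 ± 0.169 CPM in olaparib and 0.121 ± 0.129 CPM in DMSO (SD, n = 3 each). Of the other 5 intestinal markers, LGR5 was called lower, at 0.0233 ± 0.0403 CPM in olaparib and 2.15 ± 1.04 CPM in DMSO, and CDX1, KRT20, VIL1 and CDH17 had too few reads to be tested. The 7 intestinal markers summed to 10.01 ± 0.157 CPM in olaparib and 26.9 ± 2.82 CPM in DMSO. Of 4 epithelial markers (EPCAM, KRT8, KRT18 and CDH1), 3 were called higher, with a sum of 987 ± 156 CPM in olaparib and 252 ± 33.6 CPM in DMSO. Sums over fibroblast markers (116 ± 17.7 CPM in olaparib and 96.7 ± 3.84 CPM in DMSO), blood markers (1.05 ± 0.629 CPM in olaparib and 2.72 ± 0.43 CPM in DMSO) and endothelial markers (23.4 ± 0.954 CPM in olaparib and 0.796 ± 0.321 CPM in DMSO) were lower than the epithelial sum in both groups. Of 6 tested fibroblast markers, 4 were called lower and 1 higher, although their sum was not lower in olaparib. Of 3 tested blood markers, 2 were called lower, and of 3 endothelial markers, 2 were called higher. PARP1, the main target of olaparib, averaged 443 ± 32.7 CPM in olaparib and 989.9 ± 173 CPM in DMSO (adjusted p = 9.58e-06, edgeR). A difference in cell source therefore cannot be told apart from treatment in any value below, and each direction is between libraries as labelled. In bulk RNA, fewer cells of a type and less RNA per cell also cannot be told apart.

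Differences were large across the transcriptome, so the members are read against that background. Of 17078 genes tested, 75.7% were called at an adjusted p below 0.05, with 35.4% called higher in olaparib and 40.3% called lower. Of the 46 complex I genes, 4 were called higher, 34 lower and 8 were not called. The median log2 fold change over the 46 genes was -0.78, against -0.09 over all tested genes. A difference of at least 2-fold downwards was reached by 17 of the 46, against 25.0% of all tested genes, and none rose at least 2-fold, against 22.0% of all tested genes. The values of the groups did not overlap for 40 of the 46, where the share over all tested genes was 79.4%. The median size of the difference, regardless of sign, was 0.79 for these genes and 0.94 for all tested genes. The members thus differed from the background in direction more than in size. Within groups the median SD of log2 CPM over the members was 0.14.

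**Figure D1:**
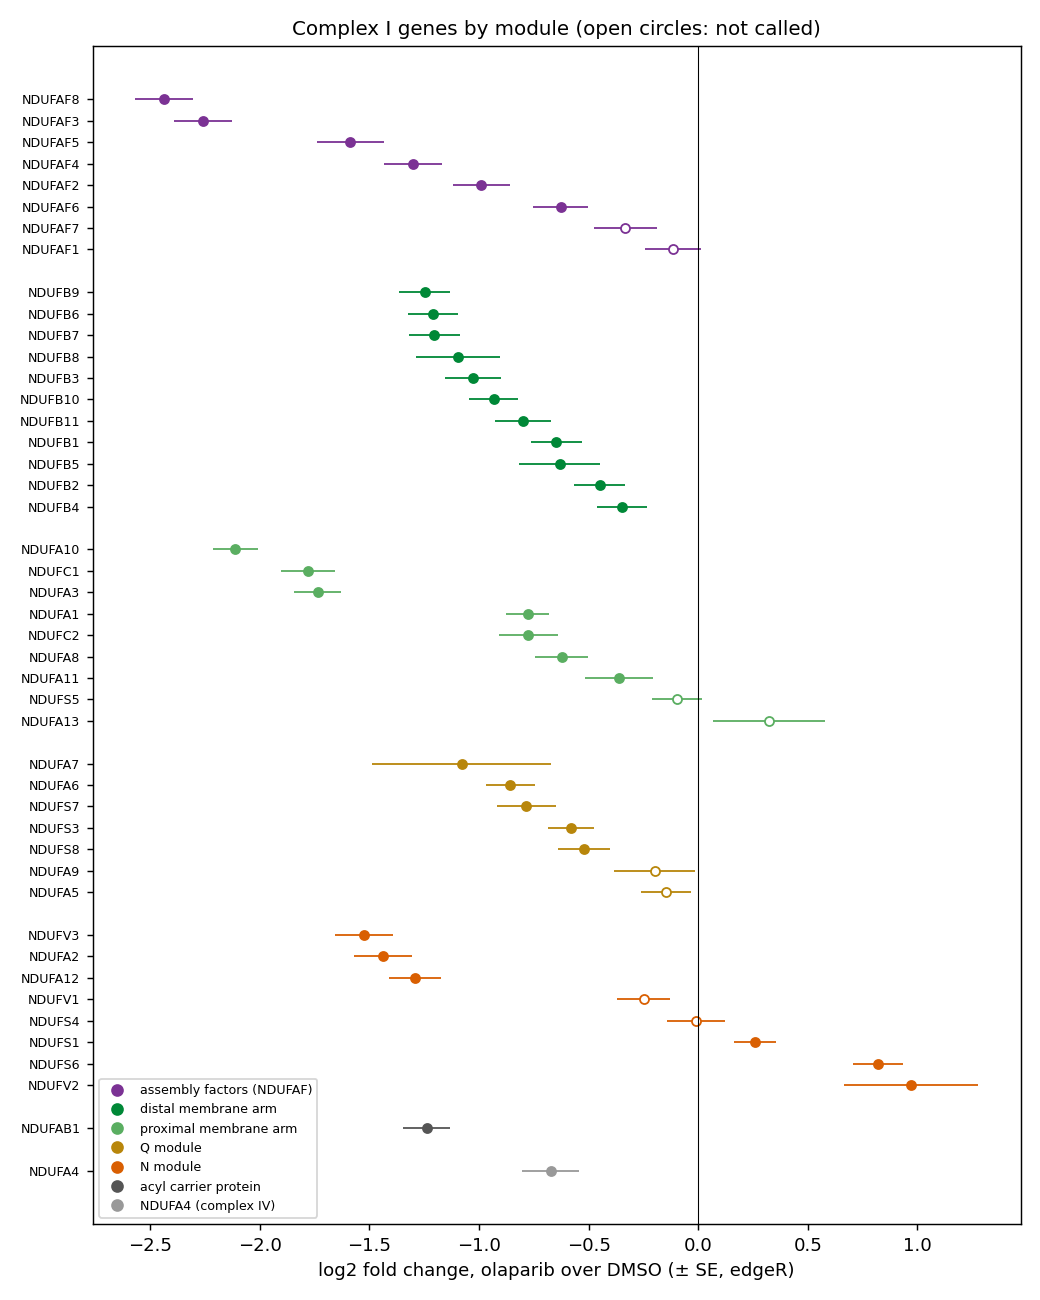
Log2 fold change, olaparib over DMSO, of the complex I genes matched by name, 1 gene not drawn, grouped by module, with SE bars from the edgeR fit (n = 3 libraries per group). Filled points were called at an adjusted p below 0.05 and open points were not. The assembly factors run from -2.44 to -0.11, every distal membrane arm gene lies below 0, and the called points drawn above 0 are NDUFV2, NDUFS6 and NDUFS1.

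Assembly factors stood lower in olaparib as a group, with 6 of 8 called lower, none called higher and a median log2 fold change of -1.15. The subunits had a median of -0.72, with 28 of 38 called lower and 4 called higher, against 40.3% and 35.4% of all tested genes. The number called higher was 1 without olaparib replicate 3 and 2 without olaparib replicate 1, olaparib replicate 2 or DMSO replicate 3. Counts summed over the 8 assembly factors gave 124 ± 0.566 CPM in olaparib and 338 ± 33.6 CPM in DMSO (SD, n = 3 each), a ratio of 2.72. The sum over the 37 nuclear subunits was 2149 ± 81.9 CPM in olaparib and 3170.4 ± 304.9 CPM in DMSO. Whether assembly factors and subunits differ from each other was not tested, since genes of 1 pathway are not independent replicates.

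The largest difference among the members was in NDUFAF8 (chr17:81239239-81241281 in GENCODE release 29, hg38), the partner that stabilises NDUFAF5. It had 15.7, 13.3 and 15.4 CPM in the olaparib libraries, against 85.2, 88.1 and 67.0 CPM in the DMSO libraries. Every olaparib library lay far below every DMSO library, and expression was 5.41-fold lower (log2 fold change -2.44 ± 0.13, SE, adjusted p = 1.07e-08, edgeR). NDUFAF5 (chr20:13784950-13821582) hydroxylates an arginine of the core subunit NDUFS7. It had 6.00, 6.27 and 7.25 CPM in the olaparib libraries, against 21.2, 19.5 and 17.9 CPM in the DMSO libraries, again without overlap, and was lower (log2 fold change -1.59 ± 0.15, SE, adjusted p = 1.38e-06, edgeR). The substrate NDUFS7 was lower too, though by less, as given below. Both genes of this hydroxylation step therefore stood among the 3 lowest assembly factors.

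NDUFAF3 (chr3:49020459-49023495) and NDUFAF4 (chr6:96889313-96897881) bind each other and build the ubiquinone-reducing module. NDUFAF3 had 24.0, 22.6 and 19.2 CPM in the olaparib libraries, against 95.5, 123 and 96.4 CPM in the DMSO libraries. The groups were separate, with a 4.79-fold lower level (log2 fold change -2.26 ± 0.13, SE, adjusted p = 2.09e-08, edgeR). NDUFAF4 had 11.4, 10.9 and 13.4 CPM in the olaparib libraries, against 28.8, 31.4 and 27.8 CPM in the DMSO libraries, and the groups did not overlap (log2 fold change -1.30 ± 0.13, SE, adjusted p = 2.1e-06, edgeR). The pair moved in the same direction, NDUFAF4 by the smaller amount.

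NDUFAF2 (chr5:60945129-61153037), a paralog of the subunit NDUFA12, acts late, when the NADH-oxidising module is joined. It had 21.1, 23.5 and 23.3 CPM in the olaparib libraries, against 48.9, 48.9 and 37.1 CPM in the DMSO libraries. The spread within DMSO came from DMSO replicate 3, and the groups remained apart (log2 fold change -0.99 ± 0.13, SE, adjusted p = 2.09e-05, edgeR). NDUFA12, which takes its place in the finished enzyme, was lower as well (log2 fold change -1.29 ± 0.12, SE, adjusted p = 8.71e-07, edgeR). NDUFAF6 (chr8:94895767-95116455), which acts on early intermediates around the mitochondrially encoded subunit ND1, had 14.5, 13.2 and 13.5 CPM in the olaparib libraries, against 21.5, 21.7 and 20.4 CPM in the DMSO libraries. Its values were tight in both groups and 1.55-fold lower in olaparib (log2 fold change -0.63 ± 0.13, SE, adjusted p = 0.000617, edgeR).

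The other 2 assembly factors were not called. NDUFAF7 (chr2:37231631-37253403), an arginine methyltransferase that acts during assembly, had 12.4, 15.1 and 16.4 CPM in the olaparib libraries, against 19.2, 18.6 and 17.5 CPM in the DMSO libraries. The groups did not overlap, but olaparib replicate 3 came close to DMSO replicate 3 (log2 fold change -0.33 ± 0.14, SE, adjusted p = 0.0513, edgeR). NDUFAF7 lay just on the far side of the threshold and passed it in 2 of 15 alternative fits. NDUFAF1 (chr15:41387349-41402519), a member of the intermediate assembly complex for the membrane arm, had 18.6, 19.8 and 16.3 CPM in the olaparib libraries, against 19.97, 19.5 and 19.7 CPM in the DMSO libraries. Its groups overlapped (log2 fold change -0.11 ± 0.13, SE, adjusted p = 0.43, edgeR).

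**Figure D2:**
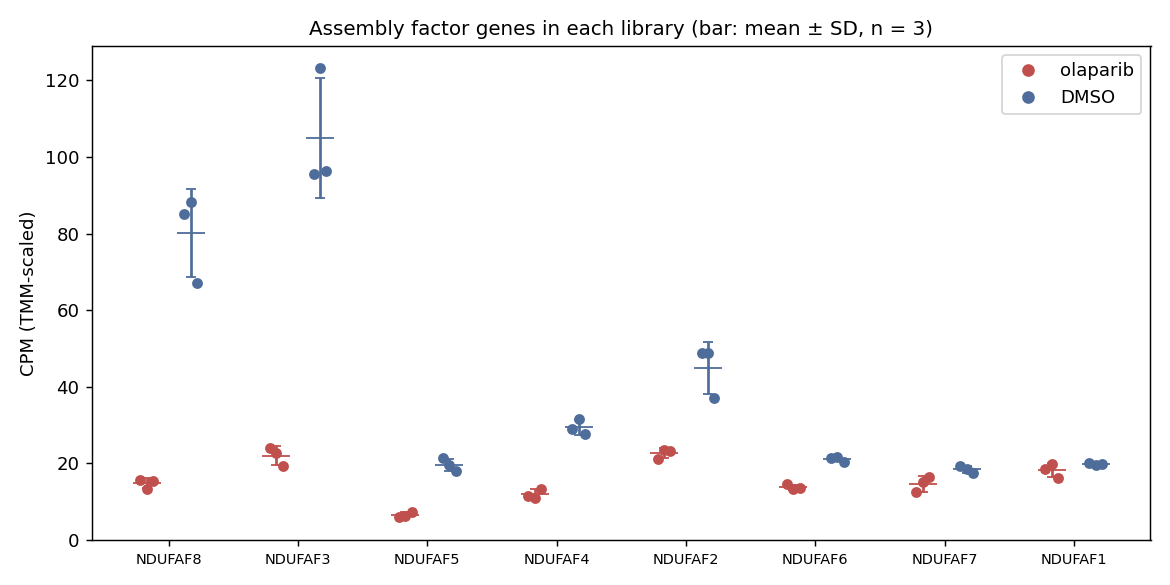
Expression in CPM of each of the 8 NDUFAF genes in every library, with olaparib libraries left of DMSO libraries, points for libraries and a bar at the mean of 3. NDUFAF8 and NDUFAF3 show the widest gaps between groups, and NDUFAF1 is the gene whose groups overlap.

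NDUFAF1 works with ACAD9, ECSIT, TMEM126B, TIMMDC1 and COA1, and these belong to a list of 14 further complex I assembly factors that the name pattern does not catch. Of these 14, 3 were called higher, 5 lower and 6 were not called, with a median of -0.17, against 35.4% higher and 40.3% lower among all tested genes. The 3 called higher were TMEM126B, ACAD9 and FOXRED1, with log2 fold changes of 0.98, 0.89 and 0.92. TMEM126B averaged 52.5 ± 1.55 CPM in olaparib and 26.7 ± 1.49 CPM in DMSO (SD, n = 3 each) (adjusted p = 2.65e-06, edgeR). ACAD9, an acyl-CoA dehydrogenase that also acts in assembly, averaged 121 ± 5.65 CPM in olaparib and 65.2 ± 7.19 CPM in DMSO (SD, n = 3 each) (adjusted p = 8.55e-06, edgeR). FOXRED1, an oxidoreductase needed for assembly, averaged 102 ± 6.53 CPM in olaparib and 54.0 ± 3.51 CPM in DMSO (SD, n = 3 each). ECSIT, of the same intermediate assembly complex as ACAD9 and TMEM126B, was lower (log2 fold change -0.87 ± 0.12, SE, adjusted p = 2.79e-05, edgeR). The lowest of the 14 were TMEM70, also needed for ATP synthase assembly (log2 fold change -1.42 ± 0.12, SE, adjusted p = 4.42e-07, edgeR), and DMAC2, a factor of distal membrane arm assembly (log2 fold change -1.27 ± 0.11, SE, adjusted p = 4.11e-07, edgeR). Within the intermediate assembly complex, then, called members stood on both sides of 0. Whether these 14 factors differ from the 8 with NDUFAF names was not tested.

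The 7 nuclear core subunits, which carry the flavin and the iron-sulfur clusters, had a median log2 fold change of -0.25. Of the 6 described here, 2 were called higher, 3 lower and 1 was not called, where 35.4% of all tested genes were called higher and 40.3% lower. The sum over the 7 was 789 ± 24.5 CPM in olaparib and 858 ± 76.2 CPM in DMSO (SD, n = 3 each). Of the 30 accessory subunits, 1 was called higher, 24 lower and 5 were not called, with a median of -0.83. No core subunit was 2-fold lower, against 13 of the 30 accessory subunits. The 7 core subunits have 630 to 2181 coding bases, and most accessory subunits have under 600. Coding length, taken up below, was not matched between them.

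NDUFV1 binds the flavin and the NADH at the entry of the electron chain. It had 242, 216 and 229 CPM in the olaparib libraries, against 245, 319 and 253 CPM in the DMSO libraries, with DMSO replicate 2 above the rest, and was not called (log2 fold change -0.25 ± 0.12, SE, adjusted p = 0.0774, edgeR). The largest core subunit, NDUFS1, which holds several iron-sulfur clusters, had 184, 176 and 182 CPM in the olaparib libraries, against 163, 142 and 149 CPM in the DMSO libraries. The groups did not overlap, and the difference was small (log2 fold change 0.26 ± 0.10, SE, adjusted p = 0.0286, edgeR). The call of NDUFS1 was not firm, as it was lost in 8 of 15 alternative fits, though the difference stayed above 0. Omitting any 1 of the olaparib libraries, DMSO replicate 2 or DMSO replicate 3 ended it, and the highest adjusted p over the alternatives was 0.0934, by edgeR. NDUFV1 passed the threshold without DMSO replicate 1 (adjusted p = 0.0218, edgeR).

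The 3 core subunits called lower all lie around the ubiquinone-reducing end. NDUFS7, which carries the last cluster before ubiquinone, had 15.0, 13.8 and 13.0 CPM in the olaparib libraries, against 21.7, 27.0 and 23.4 CPM in the DMSO libraries (log2 fold change -0.79 ± 0.14, SE, adjusted p = 0.000192, edgeR). NDUFS3, among the first subunits to enter assembly, had 71.1, 64.3 and 63.0 CPM in the olaparib libraries, against 101, 107 and 89.5 CPM in the DMSO libraries (log2 fold change -0.58 ± 0.10, SE, adjusted p = 0.000263, edgeR). NDUFS8, a ferredoxin-like subunit, had 109, 96.3 and 104 CPM in the olaparib libraries, against 135, 173 and 135 CPM in the DMSO libraries (log2 fold change -0.52 ± 0.12, SE, adjusted p = 0.00153, edgeR). In each of the 3 the groups were separate and the difference was under 2-fold. For NDUFS3, 19.6% of exon bases are shared with PTPMT1 on the same strand, and a table of this kind cannot assign such reads. NDUFS7 shares 49.1% of its exon bases with antisense genes on the opposite strand, and the strand setting of the counts is not given.

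NDUFV2, another cluster-bearing core subunit, had 2.58, 2.58 and 3.43 CPM in the olaparib libraries, against 1.21, 1.15 and 1.99 CPM in the DMSO libraries (log2 fold change 0.97 ± 0.31, SE, adjusted p = 0.0122, edgeR). These are 74, 79 and 97 counts in the olaparib libraries, against 51, 34 and 88 in the DMSO libraries, and they are low for a core subunit. Its processed copy NDUFV2P1 held 437 counts over the olaparib libraries and 442 over the DMSO libraries, more than NDUFV2 itself. With reads of the copy added to the gene, the log2 fold change was 0.54 (adjusted p = 0.0247, edgeR). The call was lost without olaparib replicate 3 (adjusted p = 0.0517, edgeR). NDUFV2 also shares 28.4% of its exon bases with another annotated gene on the same strand, so its level is uncertain.

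The NADH-oxidising module at the tip of the matrix arm (8 subunits) had 3 called higher, 3 lower and 2 not called, with a median of -0.13. These shares are near those of all tested genes (35.4% called higher and 40.3% called lower). The module's highest members were NDUFV2 and NDUFS6, and its lowest NDUFV3 and NDUFA2. NDUFS6, a small zinc-binding subunit (chr5:1801400-1816605), had 151, 158 and 164 CPM in the olaparib libraries, against 93.5, 99.8 and 75.1 CPM in the DMSO libraries. It was the accessory subunit called higher, by 1.77-fold (log2 fold change 0.82 ± 0.12, SE, adjusted p = 3.82e-05, edgeR), with no overlap. NDUFV3, a small accessory subunit bound near NDUFV1, had 39.4, 38.1 and 30.003 CPM in the olaparib libraries, against 93.4, 119 and 97.1 CPM in the DMSO libraries and was 2.88-fold lower (log2 fold change -1.53 ± 0.13, SE, adjusted p = 5.58e-07, edgeR). NDUFA2, a subunit with a thioredoxin-like fold, had 16.3, 16.8 and 16.8 CPM in the olaparib libraries, against 40.8, 53.8 and 40.8 CPM in the DMSO libraries and was 2.71-fold lower (log2 fold change -1.44 ± 0.13, SE, adjusted p = 8.84e-07, edgeR). Both were separated between groups. NDUFS4, a subunit often mutated in Leigh syndrome, showed no difference that the test could call (log2 fold change -0.01 ± 0.13, SE, adjusted p = 0.952, edgeR).

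In the ubiquinone-reducing module and the subunits next to it (8 genes), 5 were called lower, against 40.3% of all tested genes. The median over the 8 was -0.55. NDUFA5, a matrix arm subunit, had 59.4, 47.4 and 49.3 CPM in the olaparib libraries, against 60.9, 59.1 and 52.7 CPM in the DMSO libraries, where the groups overlapped (log2 fold change -0.15 ± 0.11, SE, adjusted p = 0.262, edgeR). The lowest was NDUFA7, with 1.08, 0.457 and 0.460 CPM in the olaparib libraries, against 1.28, 1.38 and 1.56 CPM in the DMSO libraries (log2 fold change -1.08 ± 0.41, SE, adjusted p = 0.0298, edgeR). NDUFA7 had few reads, 31, 14 and 13 counts in the olaparib libraries, against 54, 41 and 69 in the DMSO libraries, and shares 32.3% of its exon bases with another gene on the same strand. Omitting olaparib replicate 2 or 3 ended the call (adjusted p = 0.115 and 0.116, edgeR), as did omitting DMSO replicate 2 or 3 (0.0531 and 0.0882). NDUFA6, an LYR-motif protein that docks the acyl carrier protein, had 47.7, 46.1 and 45.8 CPM in the olaparib libraries, against 80.7, 97.0 and 75.5 CPM in the DMSO libraries and was 1.81-fold lower (log2 fold change -0.86 ± 0.11, SE, adjusted p = 1.85e-05, edgeR).

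The acyl carrier protein itself, NDUFAB1, sits in both arms and also serves mitochondrial fatty acid synthesis. It had 58.3, 49.4 and 51.3 CPM in the olaparib libraries, against 131, 130.3 and 114 CPM in the DMSO libraries, with the groups far apart (log2 fold change -1.24 ± 0.11, SE, adjusted p = 4.96e-07, edgeR). NDUFA9, at the junction of the arms, was not called (log2 fold change -0.20 ± 0.19, SE, adjusted p = 0.347, edgeR), and 10.6% of its exon bases are shared with other genes on the same strand.

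The proximal membrane arm (9 subunits) had none called higher, 7 lower and 2 not called, with a median of -0.77. Of all tested genes, 35.4% were called higher and 40.3% lower. NDUFA10, a subunit of the nucleoside kinase family (chr2:239892450-240025402), had 33.6, 35.7 and 33.2 CPM in the olaparib libraries, against 154, 154 and 135 CPM in the DMSO libraries. The olaparib values were tight and 4.32-fold below DMSO, the lowest of all subunits (log2 fold change -2.11 ± 0.10, SE, adjusted p = 3.87e-09, edgeR). NDUFC1, a small membrane subunit, had 17.0, 17.1 and 20.9 CPM in the olaparib libraries, against 65.0, 66.8 and 56.9 CPM in the DMSO libraries (log2 fold change -1.78 ± 0.12, SE, adjusted p = 7.18e-08, edgeR), and 18.5% of its exon bases are shared with MGARP on the same strand. NDUFA3, another small membrane subunit, followed at 3.33-fold lower (log2 fold change -1.74 ± 0.11, SE, adjusted p = 3.21e-08, edgeR). The highest of the module were NDUFA13 and NDUFS5, neither of them called.

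NDUFA13, also known as GRIM-19, had 3.49, 4.80 and 3.15 CPM in the olaparib libraries, against 3.54, 2.49 and 3.10 CPM in the DMSO libraries, with overlapping groups (log2 fold change 0.32 ± 0.26, SE, adjusted p = 0.268, edgeR). It shares 21.0% of its exon bases with other genes on the same strand, and its counts were low. NDUFS5, a subunit of the intermembrane space side, had 143, 134 and 135 CPM in the olaparib libraries, against 147, 167 and 127 CPM in the DMSO libraries, and these also overlapped (log2 fold change -0.10 ± 0.11, SE, adjusted p = 0.445, edgeR). NDUFA11 was called at the edge of the threshold (log2 fold change -0.36 ± 0.15, SE, adjusted p = 0.0489, edgeR), and 10 of 15 alternative fits lost the call, among them those without any 1 of the olaparib libraries or DMSO replicate 2. The remaining members of the module, NDUFA1, NDUFC2 and NDUFA8, were called lower with log2 fold changes of -0.78, -0.77 and -0.62. NDUFC2 shares 16.3% of its exon bases with NDUFC2-KCTD14 on the same strand.

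Every subunit of the distal membrane arm (11 of 11), all of the NDUFB series, was called lower, against 40.3% of all tested genes. Log2 fold changes ran from -1.25 to -0.35 with a median of -0.93. The lowest was NDUFB9, an LYR-motif protein that binds an acyl carrier protein, with 57.6, 58.4 and 55.2 CPM in the olaparib libraries, against 122, 159 and 126 CPM in the DMSO libraries (log2 fold change -1.25 ± 0.12, SE, adjusted p = 9.77e-07, edgeR). NDUFB6 had 41.0, 33.7 and 35.1 CPM in the olaparib libraries, against 85.4, 91.8 and 77.0 CPM in the DMSO libraries (log2 fold change -1.21 ± 0.11, SE, adjusted p = 1.05e-06, edgeR). The smallest differences were in NDUFB4, with 101, 85.0 and 77.3 CPM in the olaparib libraries, against 117, 114 and 103 CPM in the DMSO libraries (log2 fold change -0.35 ± 0.11, SE, adjusted p = 0.0153, edgeR), and NDUFB2, with 60.7, 59.3 and 57.0 CPM in the olaparib libraries, against 83.9, 90.0 and 68.0 CPM in the DMSO libraries (log2 fold change -0.45 ± 0.11, SE, adjusted p = 0.00345, edgeR). In all 4 the groups did not overlap. The call of NDUFB4 was lost without olaparib replicate 2 or 3, with adjusted p-values of up to 0.118 in edgeR. NDUFB8 shares 33.8% of its exon bases with another gene on the same strand and was lower by an intermediate amount (log2 fold change -1.10 ± 0.19, SE, adjusted p = 0.000211, edgeR). The other 6 (NDUFB7, NDUFB3, NDUFB10, NDUFB11, NDUFB1 and NDUFB5) lay between -1.20 and -0.63.

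By arm, the 16 matrix arm subunits had 4 called higher, 8 lower and 4 not called, with a median of -0.38. The 20 membrane arm subunits had none called higher, 18 lower and 2 not called, with a median of -0.79. Among all tested genes, 35.4% were called higher and 40.3% lower. Summed levels were 1156 CPM in olaparib and 1338 CPM in DMSO for the matrix arm, and 939.7 CPM in olaparib and 1707 CPM in DMSO for the membrane arm. The arms themselves were not tested against each other, and coding length was not matched between them. NDUFA4, the complex IV subunit caught by its name, had 143, 123 and 99.7 CPM in the olaparib libraries, against 189, 211 and 183 CPM in the DMSO libraries and was lower (log2 fold change -0.67 ± 0.13, SE, adjusted p = 0.000489, edgeR).

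The 7 complex I subunits encoded by mitochondrial DNA stood the other way. Of these, 5 were called higher, 1 lower and 1 was not called, with a median log2 fold change of 0.67. By comparison, 35.4% of all tested genes were called higher and 40.3% lower. MT-ND4, a proton-pumping subunit, was the highest (log2 fold change 1.14 ± 0.15, SE, adjusted p = 1.6e-05, edgeR), followed by MT-ND2 (0.95), MT-ND1 (0.85), MT-ND6 (0.67) and MT-ND4L (0.52). MT-ND3 was lower (log2 fold change -0.56 ± 0.13, SE, adjusted p = 0.0021, edgeR), and MT-ND5 overlapped between groups (log2 fold change 0.33 ± 0.14, SE, adjusted p = 0.0514, edgeR). Summed MT-ND levels were 22065, 20205 and 17356 CPM in the olaparib libraries, against 11764, 10618 and 11398 CPM in the DMSO libraries. Sums of the 37 nuclear subunits were 2242, 2089 and 2116 CPM in the olaparib libraries, against 3132, 3493 and 2886 CPM in the DMSO libraries. Both sums separated the groups completely and in opposite directions. The ratio of the first sum to the second was 9.24 ± 0.902 in olaparib and 3.58 ± 0.479 in DMSO (SD, n = 3 each). Counts are shares of a library, and reads of mitochondrial transcripts can also fall on near-identical nuclear copies.

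**Figure D3:**
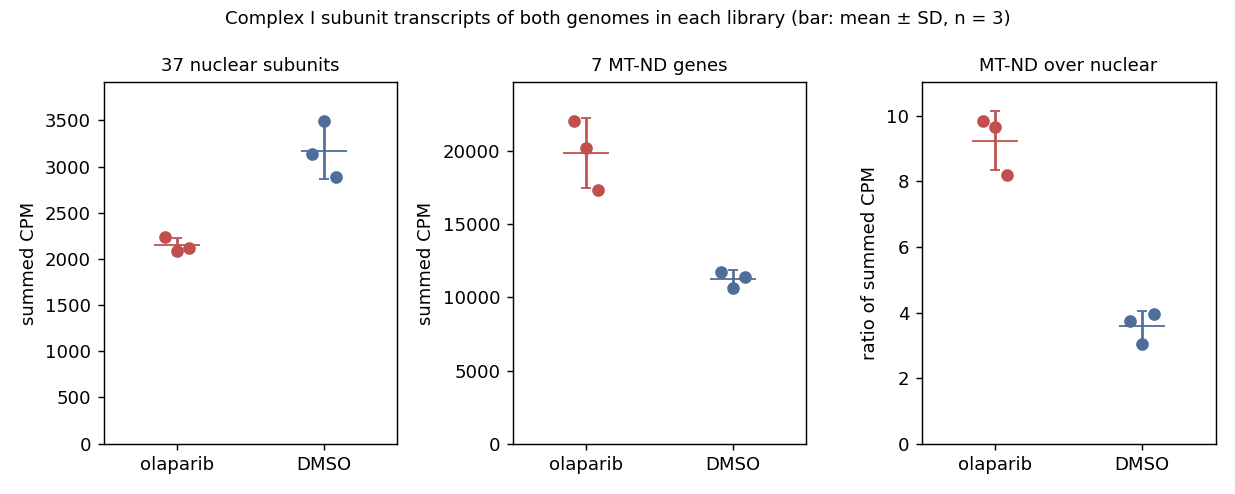
Summed CPM of the 37 nuclear-encoded complex I subunits, summed CPM of the 7 MT-ND genes, and the ratio of the MT-ND sum to the nuclear sum, in each library (olaparib left, DMSO right, points for libraries, bars for means of 3). Nuclear sums lie lower in olaparib and MT-ND sums higher, and the ratio lies between 8.20 and 9.84 in olaparib and between 3.04 and 3.95 in DMSO.

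Other nuclear respiratory genes had medians on the same side of 0. Among 42 subunits and assembly genes of complexes II to V, 1 was called higher, 37 lower and 4 were not called, with a median of -0.89. The 4 of these with the smallest adjusted p were UQCR10 of complex III (-2.28), the ATP synthase ring subunit ATP5MC3 (-1.80), COX6B1 of complex IV (-1.52) and the complex II assembly factor SDHAF1 (-1.85), all log2 fold changes. The 1 called higher was SDHA, the flavoprotein of complex II (log2 fold change 1.49 ± 0.12, SE, adjusted p = 2.69e-07, edgeR). Of 77 tested mitochondrial ribosomal protein genes, 7 were called higher, 47 lower and 23 were not called, with a median of -0.53. Genes of mitochondrial matrix enzymes and import (12) had 2 called higher, 6 lower and 4 not called, with a median of -0.32. Of all tested genes, 40.3% were called lower, with a median of -0.09. Lower calls were thus well above that share for complexes II to V (37 of 42), and less so for mitochondrial ribosomal proteins (47 of 77). The 6 of 12 matrix enzyme and import genes lay nearer to it, in a small list. Coding length, taken up below, was not matched for these lists.

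**Figure D4:**
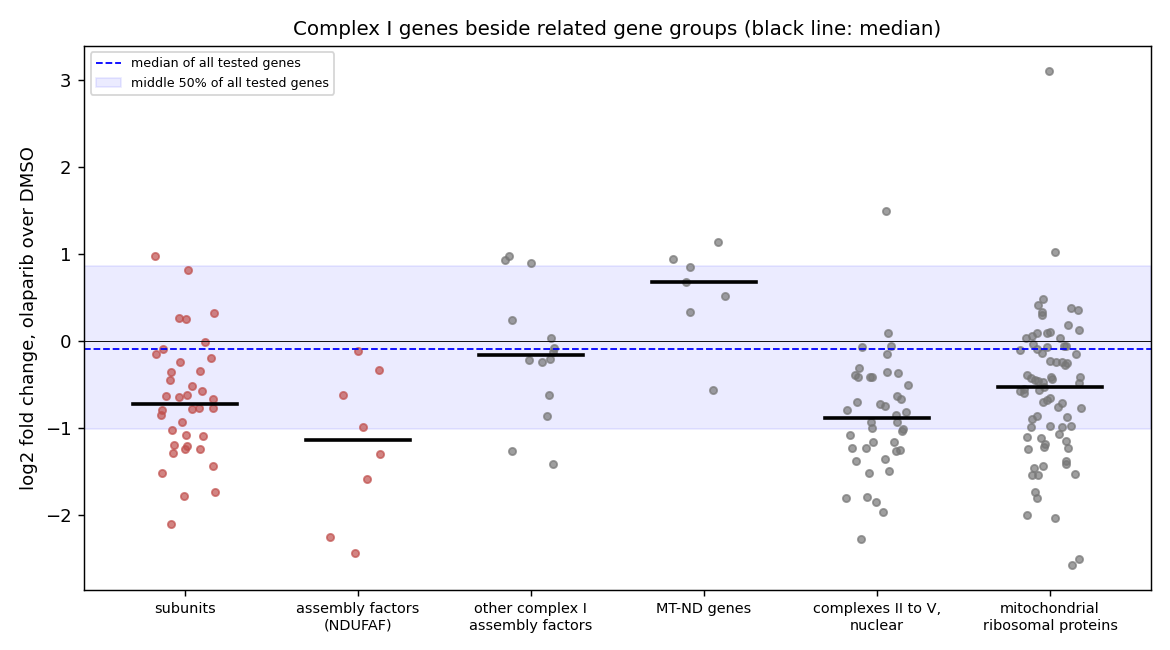
Log2 fold change, olaparib over DMSO, of each gene in complex I subunits, NDUFAF assembly factors, other complex I assembly factors, MT-ND genes, complexes II to V and mitochondrial ribosomal proteins, with a bar at each list's median. The medians are -0.72, -1.15, -0.17, 0.67, -0.89 and -0.53 in that order, against -0.09 for all tested genes.

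Short genes stood lower in general, and complex I genes are short. Among other tested protein-coding genes with under 600 coding bases, the median log2 fold change was -0.60 and 57.7% were called lower. The 33 members of that length had a median of -0.93, with 28 called lower and 1 called higher. Between 600 and 1200 coding bases the other genes had a median of -0.34, with 48.9% called lower, and of the 9 members there 6 were called lower and 1 higher. Between 1200 and 2400 bases the other genes had a median of -0.11, with 41.4% called lower, and of the 4 members there none was called lower and 2 were called higher. Longer genes, which include no member, had a median of 0.24. Most members averaged over 5 CPM. With other genes averaging at least 5 CPM only, the medians were -0.64, -0.31, -0.05 and 0.33, from shortest to longest. The shares called lower were then 62.9%, 50.1%, 39.7% and 27.2%. The members' log2 fold changes correlated with the log2 of coding length at r = 0.33 over 46 genes that share the same 6 libraries. The part that length has in the members' lower levels was not tested.

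Per kilobase of coding sequence, the order of levels was similar in both groups, with a correlation of log values of 0.93 over the 46 genes. NDUFA4 stood first in both, at 501 CPM per kb in olaparib and 800.0 in DMSO. NDUFS6 ranked 3 in olaparib and 15 in DMSO, and NDUFAF8 ranked 26 in olaparib and 5 in DMSO. The lowest levels per kilobase in olaparib were those of NDUFA7, NDUFV2, NDUFAF5, NDUFA9 and NDUFA13, and in DMSO those of NDUFV2, NDUFA7, NDUFA13 and NDUFA9. Apart from NDUFAF5, which shares no exon base on the same strand, each of these has over 10% of its exon bases shared there. On the opposite strand, sharing was largest for NDUFS7 (49.1%), NDUFB11 (44.9%), NDUFA1 (44.5%), NDUFB2 (35.1%) and NDUFAF3 (21.7%). As the strand setting is not given, such reads may also have been counted for these genes. Among the 46 genes, 21 share no exon base with another gene on either strand. Of these, 5 are NDUFAF genes, 4 called lower with a median of -1.30, and 16 are subunits, 11 called lower and 2 higher with a median of -0.64.

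Position in the genome was also set beside the values. For each member, the median log2 fold change of the tested protein-coding genes within 5 Mb (19 to 234 genes) was taken as that of its neighbours. Of the 46 members, 37 lay below their neighbours' median, including all 8 assembly factors and 29 subunits, and the median difference was -0.57. All 17 members that were at least 2-fold lower lay below their neighbours' median, but their selection largely fixed this outcome. Only NDUFA10 and NDUFAF5 had neighbours whose median was itself at least 2-fold lower. Across the 46 members the log2 fold change and the neighbours' median correlated at r = 0.57 (Spearman's rho 0.56), a description over genes of which some share neighbours. NDUFS6, on the short arm of chromosome 5, stood at 0.82 where its neighbours' median was 0.89, and NDUFAF5, on the short arm of chromosome 20, at -1.59 where it was -1.18. NDUFA10 stood at -2.11 beside neighbours at -1.36, whereas NDUFA2 stood at -1.44 beside neighbours at 0.69 and NDUFAF2 at -0.99 beside neighbours at 0.31.

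**Figure D5:**
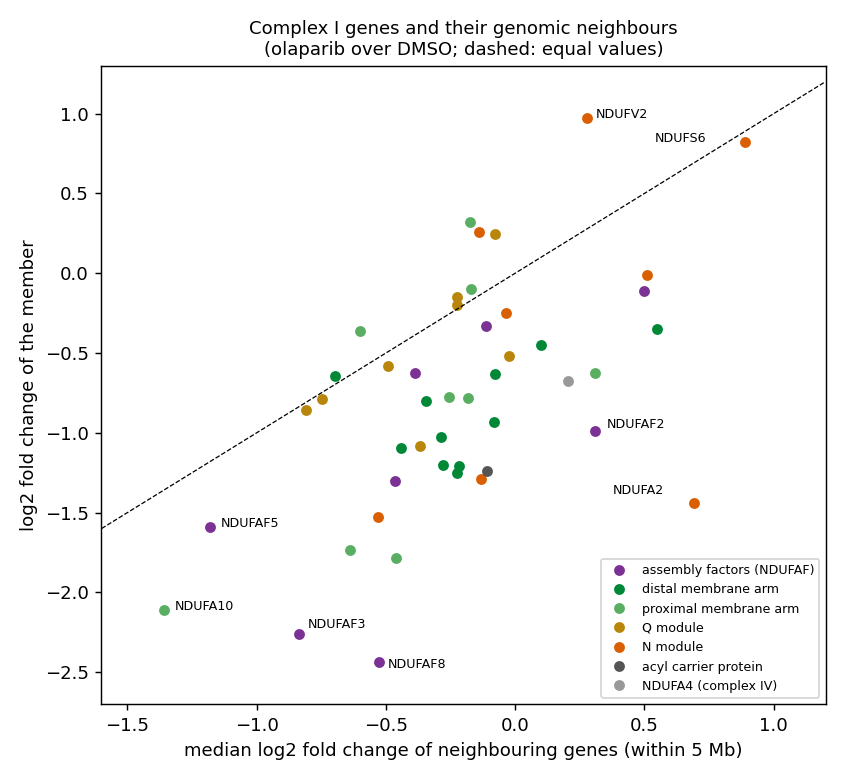
Log2 fold change of each of the 46 genes (vertical) against the median log2 fold change of the tested protein-coding genes within 5 Mb of it (horizontal), with the line of equality. The points of 37 genes lie below the line, NDUFA2 and NDUFAF2 beside neighbours above 0, and NDUFS6 close to the line at the right.

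Promoter windows from RefSeq on GRCh38.p14, 250 bases before to 50 after the start, were found for 39 of the 46 genes (51 windows). They are given because most members stood on the same side of 0. The YY1 and NRF1 motifs, known from promoters of respiratory genes, were also more frequent in these windows than in others. The YY1 motif AAGATGGCG, searched on both strands, was in 15.7% of the 51 windows, against 2.93% of 18069 windows of tested genes and 1.75% of all 35116 windows. The NRF1 motif, GCGCA and GCGC with any 1 base between them, searched on both strands, was in 13.7%, against 8.85% of windows of tested genes and 5.78% of all. That share is 7 windows, so the NRF1 difference rests on few windows. The ETS motif CCGGAAG was in 15.7%, against 15.1% of windows of tested genes, and the SP1 motif GGGCGG in 64.7%, against 63.7%. The motif of ZNF143 and THAP11 (ACTACA and CCCA with any 3 bases between them) and that of the estrogen-related receptors (TNAAGGTCA) were each in 1 of the 51 windows (1.96%). Among windows of tested genes the shares were 2.67% and 0.63%, in that order. The YY1 letters end in GCG, with which the NRF1 letters begin, so such matches could overlap. A match is a description of letters and not a binding site.

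The YY1 matches lay 10 to 25 bases after the start, in the first bases of the transcript, in the sense orientation in all 7 genes. For NDUFAF8 this distance is from the start at 81239311. A later start at 81239318 lies closer to the same match, so 8 windows held the matches of 7 genes. The matches are shown because they mark genes with quite different values, NDUFAF8 with the largest difference and NDUFS4 and NDUFA9 with none called. Capitals mark the motif, and each stretch of 30 bases is given 5′ to 3′ on the gene's strand, from RefSeq, GRCh38.p14.
NDUFAF8, chr17:81239316-81239345, plus strand: aggacggacctAAGATGGCGgcctccaggg
NDUFB8, chr10:100529836-100529865, minus strand: tgaagaaggtgAAGATGGCGgtggccaggg
NDUFA7, chr19:8321343-8321372, minus strand: atcgcggacggAAGATGGCGtccgccaccc
NDUFA6, chr22:42090729-42090758, minus strand: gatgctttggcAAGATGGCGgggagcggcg
NDUFS7, chr19:1383913-1383942, plus strand: aggccgaggccAAGATGGCGgtgctgtcag
NDUFA9, chr12:4649113-4649142, plus strand: gattgtgggaaAAGATGGCGgctgccgcac
NDUFS4, chr5:53560649-53560678, plus strand: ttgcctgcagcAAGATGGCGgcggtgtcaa
The log2 fold changes of these genes, in the order printed, were -2.44, -1.10, -1.08, -0.86, -0.79, -0.20 and -0.01. The shared letters thus went with values between the lowest of the members and a difference near 0.

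The NRF1 matches are shown for 3 genes with capitals on the motif, in the same build and direction. They lie in promoters of an assembly factor, a subunit of the NADH-oxidising module and a subunit of the distal arm.
NDUFAF5, chr20:13785014-13785043, plus strand: agccgcgctgGCGCATGCGCacaaaaagcg
NDUFA12, chr12:95003794-95003823, minus strand: acctagctctGCGCACGCGCagagccacca
NDUFB4, chr3:120596167-120596196, plus strand: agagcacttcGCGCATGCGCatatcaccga
NDUFAF5 and NDUFA12 stood at -1.59 and -1.29 on the log2 scale and NDUFB4, which has 3 such matches, at -0.35. Over genes with a window, 6 of 29 called lower and 1 of 10 others held an NRF1 match, and 5 of 29 and 2 of 10 held a YY1 match.

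Of 12 regulators of nuclear respiratory genes, 4 were called higher, 4 lower and 4 were not called, with a median log2 fold change of 0.03. These shares are near those of all tested genes (35.4% called higher and 40.3% called lower). PPARGC1A, a coactivator of mitochondrial gene expression, averaged 34.8 ± 6.17 CPM in olaparib and 10.8 ± 1.95 CPM in DMSO (SD, n = 3 each) (log2 fold change 1.68 ± 0.17, SE, adjusted p = 1.81e-06, edgeR). Its relative PPARGC1B stood the other way (log2 fold change -1.80 ± 0.25, SE, adjusted p = 3.83e-05, edgeR). YY1 (-0.32) and THAP11 (-0.54) were lower by under 2-fold, with adjusted p of 0.0104 and 0.00148 in edgeR.

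Replicates differed in a shared way across the members. DMSO replicate 2 was the highest DMSO library for 31 of the 46 genes, with a median deviation from its group mean of 0.12 on the log2 scale, and DMSO replicate 3 was the lowest for 31, with -0.12. Olaparib replicate 1 was the highest olaparib library for 27. These deviations are small beside the medians of the NDUFAF genes and the subunits (-1.15 and -0.72), but not beside those of the other assembly factors (-0.17) or the NADH-oxidising module (-0.13). Across the fits, 37 of the 46 genes held their direction and their call in all 15 alternative fits.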

How the data were processed

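The measurements are raw read counts per gene, deposited by the authors as 1 table of 6 libraries. Per the submitters' processing notes, fastp, STAR and the build hg38 were used. How reads were assigned to genes, with which annotation and strand setting, is not given in the sources used here. Groups came from the sample titles.

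The main test was the robust quasi-likelihood test of edgeR 4.0.16 (R 4.3.3) with group as the only term, after filterByExpr and TMM scaling, with Benjamini-Hochberg adjustment over all 17078 genes tested and calls at 0.05. CPM divide a count by the TMM-scaled library total, and SEs were derived from the F statistic. Sums are over CPM, and counting error alone does not cover the spread between libraries. Positions, coding lengths and overlaps came from GENCODE release 29, matched for 99.7% of symbols, and promoters from RefSeq. Simulated counts were used to test the code. Chi-square per degree of freedom between libraries of a group was 4.74 to 68.6, above sampling noise, so each was counted separately.

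Values in every library are printed for all NDUFAF genes, the 7 core subunits and the 2 highest and 2 lowest subunits per module; of other lists, up to 4 genes with the smallest adjusted p, and others named after their values were seen. Some genes that this rule selects are left out of the text. Members and lists were chosen with earlier results of these data known. Alternatives were DESeq2 1.42.0, limma-voom (limma 3.58.1), other scalings and filters, a replicate block, halved counts, added copies and the loss of each library. Restrictions on shared exon bases and mean level, and length bins, were chosen after seeing the data.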

Additional observations from a re-analysis of the deposited data

How the results depend on the processing

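Of the 46 members, 37 kept direction and call in all 15 alternative fits. The number of subunits called higher was 4 in the fit reported, 2 with library size alone as the scaling, and 2 with no filter beyond 1 count. Leaving out each library in turn gave 1 to 3, with 1 without olaparib replicate 3 and 2 without olaparib replicate 1, olaparib replicate 2 or DMSO replicate 3. With library size alone NDUFS1 lost its call (adjusted p = 0.0934, edgeR). At a 2-fold threshold, 0 subunits were called higher and 13 lower. Among members sharing no exon base, chosen after seeing the data, 2 subunits were called higher and 11 lower, from fewer genes, and the assembly factor median was -1.30. The assembly factor median ran from -1.24 (without DMSO replicate 3) to -1.10 over the losses of a library. The median of mitochondrial ribosomal proteins ran from -0.64 (without DMSO replicate 3) to -0.43 (without olaparib replicate 3).

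NDUFS4, which was not called at -0.01, changed sign with RLE size factors (0.0026), a filter of at least 1 CPM in 3 libraries (0.011), halved counts (0.0044), limma-voom (0.0013) and DESeq2 (0.0028). Without single libraries it ranged from -0.11 (without DMSO replicate 1) through 0.026 (olaparib replicate 1), 0.028 (olaparib replicate 2) and 0.056 (DMSO replicate 2), and it was not called in any of these. NDUFV1 passed the threshold with library size alone (adjusted p = 0.0261, edgeR) and without DMSO replicate 1 (0.0218). NDUFAF7 passed it with library size alone (0.0248) and limma-voom (0.0409). NDUFV2 lost its call without olaparib replicate 3 (0.0517). Without olaparib replicate 1 the log2 fold change of NDUFA7 was -1.61. The causes were not tested. Library size alone moved the median of all genes by -0.068 on the log2 scale.

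No pairing of libraries by replicate number was seen. Deviations of same-numbered libraries from their group means correlated at -0.18, -0.13 and -0.011. Those of differently numbered libraries correlated between -0.11 and 0.18. With 3 libraries per group, such values cannot exclude that libraries were prepared in pairs. With the number as a block, 2 subunits were called higher and 27 lower, and 6 assembly factors lower, and NDUFS1 and NDUFA11 were among those no longer called. Depth limits NDUFV2, NDUFA7 and NDUFA13, which had few reads.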

Other observations

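Complex I depends on iron-sulfur clusters, and genes that supply them were described beside it. Of 13 tested genes of this supply and its LYR-motif partners (14 listed), 2 were called higher, 9 lower and 2 were not called, with a median log2 fold change of -0.72, where 40.3% of all tested genes were called lower. The summed level of the list stood the other way, at 1018 ± 6.7 CPM in olaparib and 908 ± 45.5 CPM in DMSO (SD, n = 3 each), and HSPA9 made up the largest part of it, at 661 ± 12.5 CPM in olaparib and 351 ± 36.7 CPM in DMSO (SD, n = 3 each). GLRX5, a glutaredoxin that passes clusters on, averaged 37.8 ± 0.842 CPM in olaparib and 120.3 ± 16.1 CPM in DMSO (SD, n = 3 each) (log2 fold change -1.67 ± 0.12, SE, adjusted p = 7.32e-08, edgeR). ISCA2 and IBA57, partners in making the larger clusters, stood at -1.93 and -1.53, and BOLA3, which helps deliver them, at -1.70. The 2 called higher were HSPA9, the mitochondrial chaperone that releases clusters from their scaffold (0.91), and ISCU, the scaffold itself (0.26).

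All 4 tested genes of a list of supercomplex factors and complex I paralogs were called lower, against 40.3% of all tested genes. COX7A2L, which joins complexes III and IV, averaged 110.4 ± 4.27 CPM in olaparib and 202 ± 36.7 CPM in DMSO (SD, n = 3 each) (log2 fold change -0.87 ± 0.13, SE, adjusted p = 5.53e-05, edgeR). HIGD1A (-1.53) and HIGD2A (-0.80), small membrane proteins of respiratory chain assembly, were also lower. NDUFA4L2, the hypoxia-induced paralog of NDUFA4, was low in both groups, with 0.209, 0.392 and 0.743 CPM in the olaparib libraries, against 1.54, 2.16 and 1.67 CPM in the DMSO libraries.

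NDUFA4P1, a processed copy of NDUFA4, differed in the direction opposite to its parent gene. It had 48, 42 and 52 counts in the olaparib libraries, against 2, 2 and 8 in the DMSO libraries (log2 fold change 3.95 ± 0.51, SE, adjusted p = 1.88e-05, edgeR), while NDUFA4 was 1.60-fold lower. The copy's reads are few beside those of NDUFA4, and reads of the parent gene that map to the copy could not be separated in this table. NDUFV2P1, the copy that outnumbers NDUFV2, was not called (log2 fold change 0.33 ± 0.28, SE, adjusted p = 0.297, edgeR).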
